A study of Astatotilapia calliptera with 66 samples.

Results

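The genes described here are 48 genes whose level in riverine livers of the cichlid Astatotilapia calliptera was above that in benthic livers by a fixed margin, and that carry only a LOC identifier, the placeholder symbol RefSeq gives to a gene model without an established name. They were selected on measured values. After the TPM of each gene's transcripts had been summed, the lowest of 4 riverine livers had to reach at least 2 times the highest of 5 benthic livers, and the riverine mean had to be at least 5 TPM. TPM is the share of a transcript among all transcripts of a library, corrected for transcript length and scaled to a common total. Of the 29676 genes in the table, 19698 carry a LOC identifier, and 49 of these met the limits. LOC101477050 was set aside by the selection, which left 48 members. The difference between riverine and benthic livers is therefore how the genes were chosen and not a result. It is described without p-values. What the selection did not use is the level in the littoral livers and how the level of each gene was divided among its transcripts.

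Gene models that stay without a name in fish annotations are often members of duplicated or fast-evolving families or noncoding RNAs. The files and the reference table paired none of the 48 identifiers with a product, so no function is given for any of them. Short reads that match several near-identical copies are divided among those copies by the quantification, so the level of a single model from a repeated family is uncertain, and reads whose sequence departs from the model can fail to match. The liver makes most plasma proteins, and a few transcripts therefore take a large part of its RNA.

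The study compared 3 ecomorph populations of A. calliptera from the Lake Masoko system. RNA was measured in homogenized livers of 13 wild-caught adult males, 4 riverine fish, 4 littoral fish from the shallow lake and 5 benthic fish from its deep water. The study collected riverine fish mainly in the Mbaka River and also in the Itupi River, and the labels of these 4 name no river. Lake fish were netted by divers at their depth and river fish were obtained from local fishermen, so habitat and manner of capture cannot be told apart. The labels name no treatment, and each library came from a separate fish. In whole livers, fewer cells of a type and less RNA per cell cannot be told apart either.

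A total of 10 of 34 listed hepatocyte genes that could be matched by symbol, among them those of apolipoprotein B and fibrinogen, summed to between 20171 and 41564 TPM in every liver. The sums of the populations overlapped, but those of single genes did not always. Tyrosine aminotransferase (tat) was at 484 to 688 TPM in riverine, 14.9 to 27.6 TPM in littoral and 147 to 407 TPM in benthic livers, and phenylalanine hydroxylase (pah) at 864 to 1199 TPM in riverine and 90.5 to 783 TPM in lake fish. Run was read here from the number that follows the population in each library title, which no label names as a sequencing run. By this reading, riverine and benthic fish shared no run. The littoral library G08H10 carried the number of the riverine libraries, and G10G05, G10H04 and G10H05 carried that of the benthic libraries. These sets of libraries are called the riverine run and the benthic run. Run and population thus cannot be told apart between riverine and benthic fish. Across the 21147 genes that averaged 0.1 TPM or more, the median log2 difference was -0.62 for riverine minus benthic, -0.40 for riverine minus littoral and -0.20 for littoral minus benthic livers. The members stand against these medians. After scaling of the libraries by median ratios, the medians were -0.12, -0.08 and -0.02 in the same order. They thus depend on the scaling and are not read as lower levels of most genes in riverine livers. The only red cell gene matched (1 of 16), rhag, was between 0.217 and 0.823 TPM in riverine, 0.118 and 1.27 TPM in littoral and 1.76 and 13.4 TPM in benthic livers. The 5 leukocyte genes matched (of 17) summed to between 2.26 and 6.27 TPM in riverine, 4.09 and 35.7 TPM in littoral and 7.71 and 231 TPM in benthic livers. Both lists were thus lower in all riverine livers than in all benthic livers, and their part in the levels of the members was not tested.

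Among genes with a riverine mean of at least 5 TPM, 67 of 5085 met the limits, which is 1.32% of them. LOC genes made up 49 of these, out of 2613 (1.88%), and genes with a name 18, out of 2472 (0.728%). In the opposite direction, with the same limits and the populations exchanged, 96 LOC genes and 23 named genes were high in benthic and low in riverine livers. Their share among genes with a benthic mean of at least 5 TPM was not computed. Since the median log2 difference of all genes was also -0.62 for riverine minus benthic livers, the counts of the directions are not compared. The fold limit was passed most narrowly by LOC112435011, with a ratio of lowest riverine to highest benthic level of 2.02, and LOC112435007, with 2.08, and it was missed most narrowly by LOC112430458, with 1.98, and LOC101468027, with 1.95. The mean limit was passed most narrowly by LOC101470748, at 5.91 TPM, and LOC101479486, at 6.10 TPM, and missed by LOC112436107, at 4.97 TPM, and LOC101477981, at 4.32 TPM.

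The members covered a wide range of levels. The riverine mean was at least 100 TPM in 16 members, from 10 to 100 TPM in 25 and under 10 TPM in 7. The median over the 48 members was 44.9 TPM for the riverine mean, 7.42 TPM for the littoral mean and 2.51 TPM for the benthic mean. The distance between riverine and benthic livers varied as widely, since the ratio of the lowest riverine to the highest benthic level had a median of 2.98, was under 3 in 22 members and was at least 10 in 4, namely LOC106675683 (670), LOC101484698 (69.2), LOC101466270 (12.7) and LOC101486131 (12.4). Low in benthic livers did not always mean absent. In 7 members the lowest benthic liver was at 10 TPM or more, in 21 it was at 1 TPM or more, and in 12 the highest benthic liver was under 1 TPM. Only LOC112431438, LOC106675505, LOC112432514 and LOC101479486 were listed at 0 in all 5 benthic livers.

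**Figure D1:**
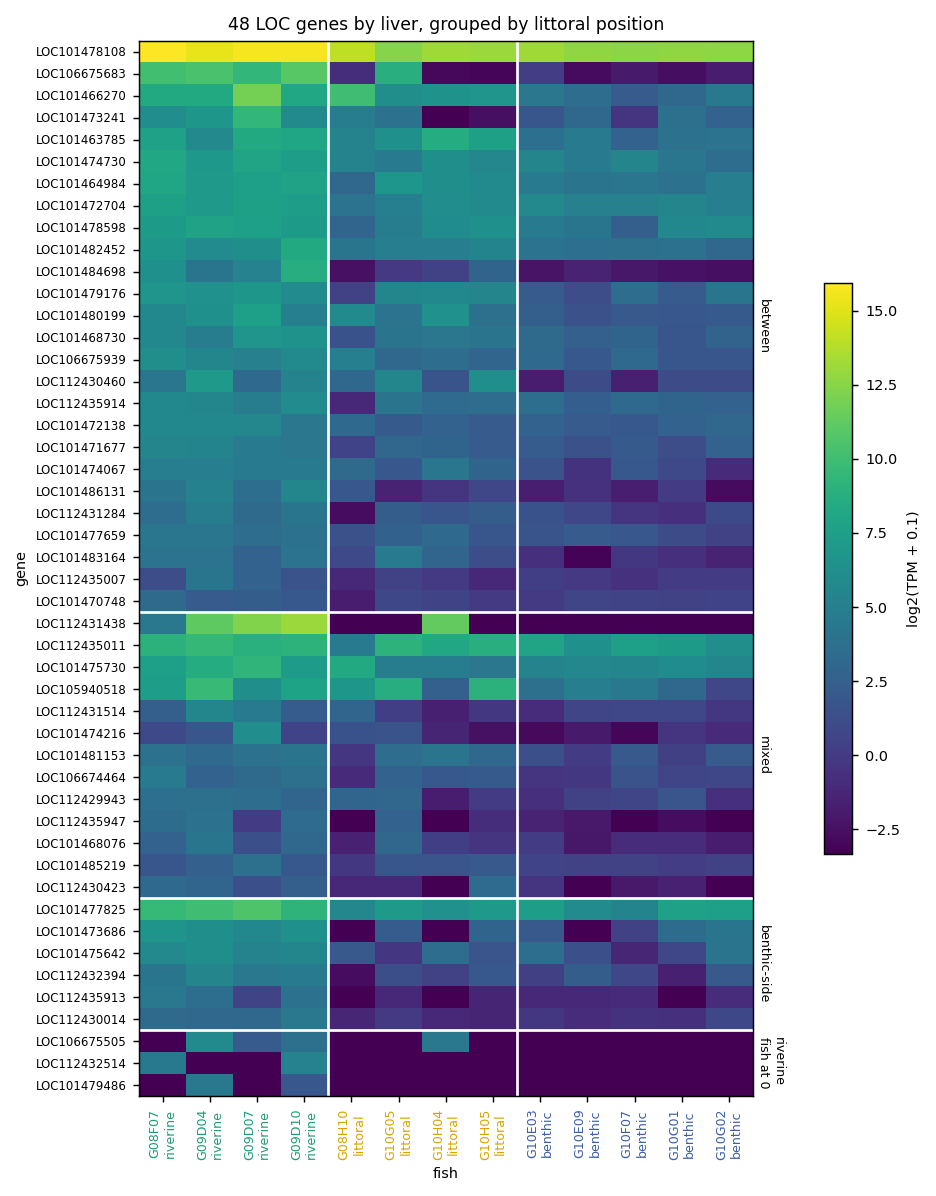
Level of the 48 members (vertical axis) in each of the 13 livers (horizontal axis), as log2(TPM + 0.1) on the colour scale, with genes grouped by where the littoral fish lie and ordered by riverine mean within a group. The 4 riverine columns are brighter than the 5 benthic columns by selection, apart from riverine livers at 0 in the lowest 3 genes, and the 4 littoral columns in the middle differ from gene to gene.

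LOC101478108 was far above all other members. In the riverine livers, in the order G08F07, G09D04, G09D07 and G09D10 used throughout, it was at 62476, 39517, 52512 and 52211 TPM. In the littoral livers, in the order G08H10, G10G05, G10H04 and G10H05, it was at 17379, 5563, 9512 and 8226 TPM. In the benthic livers, in the order G10E03, G10E09, G10F07, G10G01 and G10G02, it was at 9379.9, 6821, 6039.8, 6919.8 and 6363 TPM. All littoral livers were thus under the lowest riverine liver, and they overlapped the benthic livers, with G10G05 under all of them and G08H10 and G10H04 above all of them. The mean was 51679 ± 9407 TPM (SD, n = 4) in riverine, 10169.8 ± 5079.6 TPM (SD, n = 4) in littoral and 7105 ± 1321 TPM (SD, n = 5) in benthic livers. This gene alone held between 3.95% and 6.25% of all TPM of a riverine liver, where it ranked first or second among all genes, against 0.556% to 1.738% in littoral livers (ranks 5 to 27) and 0.604% to 0.938% in benthic livers (ranks 14 to 20).

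The other 47 members together held between 0.534% and 1.497% of the TPM of a riverine liver, between 0.188% and 0.403% of a littoral liver and between 0.0422% and 0.0752% of a benthic liver. For this sum the 3 populations did not overlap, although riverine livers lay above benthic livers by selection. In littoral G08H10 (0.188%) the sum was carried by LOC101466270 and LOC101475730. Without both genes, left out after their values were seen, G08H10 was at 0.0499%, inside the benthic range of 0.0363% to 0.0694%, while the other 3 littoral livers were at 0.185% to 0.391% and the riverine livers at 0.482% to 1.42%. The upper values also rest mostly on a single gene, LOC112431438, at 2535 TPM in littoral G10H04 and 8229.8 TPM in riverine G09D10. It was listed at 0 in all other lake fish, and the sums without it were not computed. Since TPM are shares of 1 total, the large share of LOC101478108 lowers the TPM of all other genes in the riverine livers. Other differences in scale between libraries are not covered by this gene. After scaling by median ratios 94 genes met the limits, and the part of scale in the levels of the members was not tested. With the TPM recomputed without LOC101478108, 51 genes met the limits, a count to which this gene itself was added back.

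**Figure D2:**
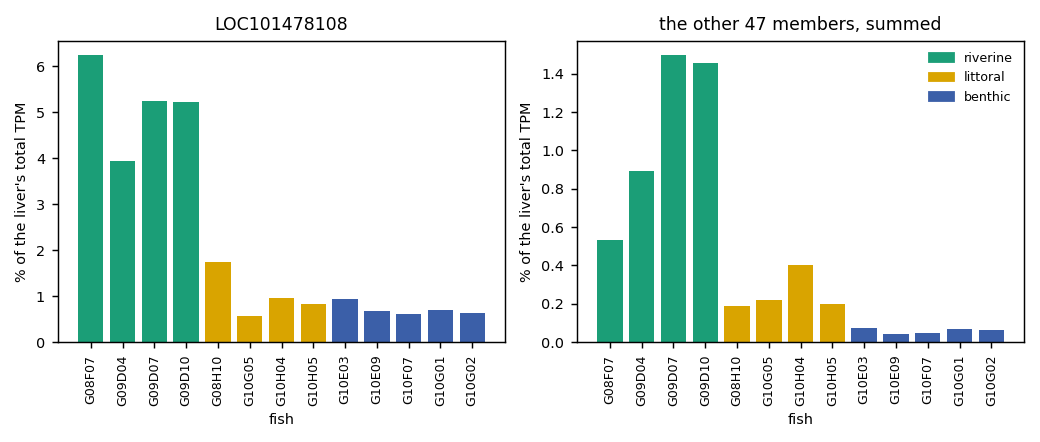
Share of a liver's total TPM, in percent, held by LOC101478108 (left) and by the other 47 members summed (right), 1 bar per fish. On the left the littoral bars (0.556% to 1.738%) overlap the benthic bars, whereas on the right the littoral bars (0.188% to 0.403%) lie above all benthic bars and under all riverine bars, in G08H10 through LOC101466270 and LOC101475730. In both panels the riverine bars lie above the benthic bars by selection. Most of the right bar of littoral G10H04 is LOC112431438.

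To describe the littoral fish, each littoral liver was set against the lowest riverine and the highest benthic liver of the same gene. A littoral liver at or above the lowest riverine liver is called in the riverine range. The comparison was possible in the 45 members whose lowest riverine liver was above 0. In no member were all 4 littoral livers in the riverine range. In 6 members all 4 were at or under the highest benthic liver, in 13 members livers of both kinds occurred, and in the remaining 26 members littoral livers lay between the limits, alone or together with livers in 1 of the 2 ranges. Of these 26, LOC101482452 was the only gene with all 4 littoral livers strictly between, 20 had some livers at or under the highest benthic liver and none in the riverine range, and 5 had some livers in the riverine range and none at or under the highest benthic liver. Any littoral liver reached the riverine range in 18 members, in 9 of them 1 liver, in 7 of them 2 livers and in 2 of them 3 livers.

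Riverine livers were all above all littoral livers in 27 of 45 members, where 1.73% of the 21147 genes showed such a separation. Littoral livers were all above all benthic livers in 6 of 45 members, against 0.936% of all genes. Both separations occurred together in LOC101482452 alone. These counts share the riverine or the benthic fish with the selection, so a raised share follows in part from the choice of members and nothing is read from it.

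LOC101482452, with littoral levels strictly between, was at 116, 61.4, 78.6 and 336 TPM in riverine livers, 17.7, 29.3, 30.3 and 42.0 TPM in littoral livers and 16.4, 12.9, 13.4, 14.3 and 8.54 TPM in benthic livers. The 3 groups did not overlap, but littoral G08H10 was close to benthic G10E03. The same order with littoral livers above all benthic livers, and some within the riverine range, was seen in LOC101466270, LOC101463785, LOC101480199, LOC112430460 and LOC101483164.

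LOC101463785 was the only member in which all 3 littoral livers of the benthic run were in the riverine range. It was at 203, 53.5, 333 and 256 TPM in riverine livers. The littoral livers had 38.5, 83.2, 382 and 201 TPM. The benthic livers had 12.9, 22.8, 6.49, 15.0 and 15.95 TPM. Littoral G10H04 was thus the highest of all 13 livers, and G08H10, from the riverine run, was the only littoral liver under the lowest riverine liver. On the log2(TPM + 0.1) scale, the mean difference was 0.48 ± 0.68 (standard error) for riverine minus littoral and 3.20 ± 0.65 for littoral minus benthic livers.

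LOC101480199 was at 50.5, 82.0, 189 and 32.3 TPM in riverine, 55.1, 15.6, 83.8 and 13.6 TPM in littoral and 5.45, 2.63, 4.00, 3.70 and 4.24 TPM in benthic livers. Littoral G08H10 and G10H04 were in the riverine range and the other two lay between. It was the only member that passed the thresholds for a difference between littoral and benthic livers given with the fits. LOC101483164 was at 16.004, 15.9, 6.42 and 15.9 TPM in riverine, 1.844, 22.8, 7.62 and 2.23 TPM in littoral and 0.522, 0.0136, 0.776, 0.545 and 0.252 TPM in benthic livers. Here G10G05 was above every riverine liver, G10H04 was within their range, and G08H10 and G10H05 lay between.

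**Figure D3:**
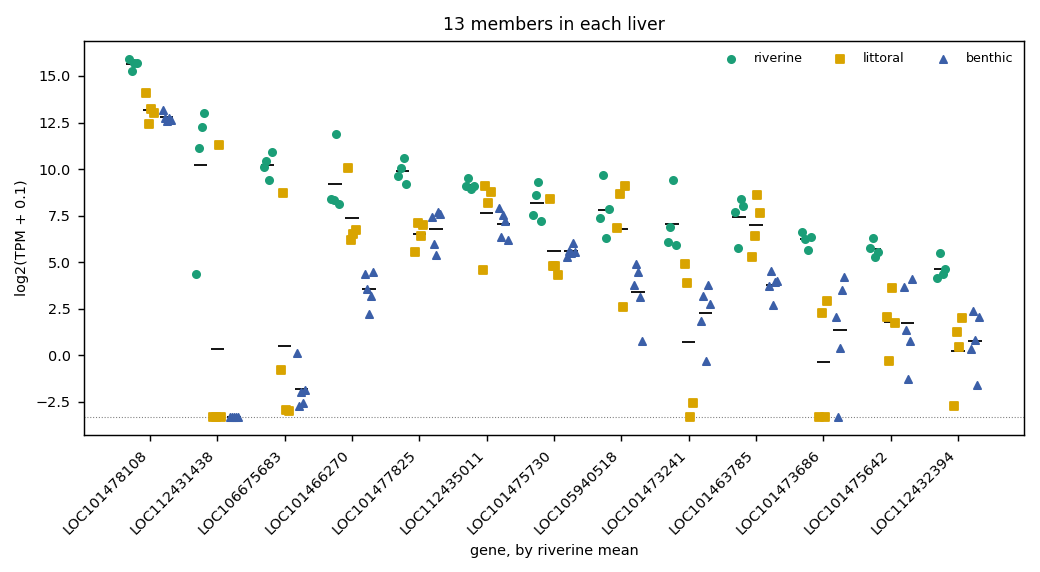
Levels of 13 members (horizontal axis, by riverine mean) as log2(TPM + 0.1) in every liver, with riverine fish as circles, littoral fish as squares, benthic fish as triangles, the mean of the log2 values as a black line and a level of 0 at the dotted line. Riverine circles lie above benthic triangles by selection, whereas littoral squares spread over both ranges in LOC112435011, LOC101475730 and LOC105940518 and stay with the triangles in LOC101477825, LOC101473686, LOC101475642 and LOC112432394.

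The 6 members with all littoral livers at or under the highest benthic liver were LOC101477825, LOC101473686, LOC101475642, LOC112432394, LOC112435913 and LOC112430014. LOC101477825 was at 779.8, 1070.1, 1563 and 591 TPM in riverine, 47.1, 137, 85.0 and 127 TPM in littoral and 171, 61.6, 41.1, 205 and 189 TPM in benthic livers. The lake fish of both populations overlapped widely, and the littoral mean of 98.8 ± 41.0 TPM (SD, n = 4) was within the spread of the benthic mean of 134 ± 76.4 TPM (SD, n = 5). LOC101473686 was at 98.5, 75.7, 50.2 and 81.3 TPM in riverine, 0, 4.78, 0 and 7.42 TPM in littoral and 4.09, 0, 1.23, 11.1 and 18.1 TPM in benthic livers. Littoral G08H10 and G10H04 and benthic G10E09 were listed at 0.

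LOC101475642 was at 54.4, 78.9, 38.3 and 46.8 TPM in riverine, 4.11, 0.706, 11.9 and 3.27 TPM in littoral and 12.5, 2.47, 0.314, 1.62 and 16.9 TPM in benthic livers. LOC112432394 was at 17.9, 44.3, 20.3 and 24.3 TPM in riverine, 0.0523, 2.31, 1.25 and 3.84 TPM in littoral and 1.15, 5.00, 1.63, 0.225 and 4.06 TPM in benthic livers. In both genes the littoral livers overlapped the benthic livers and were all under the riverine livers. LOC112435913 and LOC112430014 were lower throughout, with riverine means of 12.5 and 12.0 TPM, littoral means of 0.160 and 0.464 TPM and benthic means of 0.306 and 0.814 TPM. The littoral mean was under the benthic mean in these 6 members and also in LOC112435007 and LOC101470748, thus in 8 of 45.

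In the 13 members with littoral livers of both kinds, the littoral population was split within the gene. LOC112435011 was at 544, 727, 480.3 and 545 TPM in riverine, 23.8, 546, 289 and 439.9 TPM in littoral and 237, 81.3, 182, 146 and 73.8 TPM in benthic livers. G10G05 was level with the riverine fish, G10H04 and G10H05 lay between, and G08H10 was under every benthic liver. LOC101475730 was at 184, 389, 629.8 and 149 TPM in riverine, 330.3, 27.9, 27.8 and 19.96 TPM in littoral and 38.5, 47.4, 45.3, 65.2 and 45.7 TPM in benthic livers. Here the order was turned around, since G08H10 was among the riverine fish and the other 3 littoral livers were under every benthic liver.

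LOC105940518 was at 166, 817, 77.1 and 234 TPM in riverine, 116, 411, 5.84 and 539 TPM in littoral and 13.8, 29.9, 22.1, 8.67 and 1.61 TPM in benthic livers. The littoral livers G08H10, G10G05 and G10H05 were in the riverine range and G10H04 was among the benthic livers. LOC112430460, chosen here after its values were seen, ordered the riverine and littoral fish in the same way, with 18.6, 134, 9.62 and 40.0 TPM in riverine, 8.33, 45.4, 3.15 and 77.0 TPM in littoral and 0.188, 2.11, 0.224, 1.96 and 2.12 TPM in benthic livers. In both genes G09D04 was the highest riverine and G10H05 the highest littoral liver, and G09D07 and G10H04 were the lowest, while the order of the benthic livers differed. Both genes have short models without a coding sequence, and whether they share sequence was not tested.

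The other members of this kind were lower, with riverine means between 6.37 and 19.7 TPM, apart from LOC112431438. They were LOC112431514, LOC101474216, LOC101481153, LOC106674464, LOC112429943, LOC112435947, LOC101468076, LOC101485219 and LOC112430423. The littoral liver in the riverine range was G10G05 in LOC106674464, LOC112435947 and LOC101468076, G08H10 in LOC112431514 and G10H05 in LOC112430423. It was G08H10 and G10G05 in LOC101474216 and LOC112429943, G10G05 and G10H04 in LOC101481153, and G10G05 and G10H05 in LOC101485219. No littoral fish thus took the riverine side in all of these genes.

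LOC112431438 was at 20.5, 2279.9, 4871 and 8229.8 TPM in riverine livers and at 0, 0, 2535 and 0 TPM in littoral livers, and it was listed at 0 in every benthic liver. The riverine mean of 3850.4 ± 3529 TPM (SD, n = 4) had a spread close to the mean itself, with G08F07 far under the other riverine livers. Among lake fish, the transcript was detected in littoral G10H04 alone. No ratio to the benthic livers is given, since TPM keep no count that would set a lower limit. LOC106675505, chosen here after its values were seen, was likewise listed above 0 in only 1 lake fish, G10H04 (20.8 TPM), and in riverine livers it was at 0, 55.0, 4.44 and 13.7 TPM.

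LOC106675683 was at 1092, 1380.3, 673 and 1953 TPM in riverine, 0.473, 426, 0.0300 and 0.0259 TPM in littoral and 1.005, 0.0506, 0.157, 0.0657 and 0.174 TPM in benthic livers. Littoral G10G05 stood apart from all other lake fish and lay under the lowest riverine liver, and the other 3 littoral livers were among the benthic livers or under them. LOC101484698 had the next largest distance between riverine livers (80.3, 17.5, 36.8 and 410.3 TPM) and benthic livers (0.0978, 0.252, 0.131, 0.0912 and 0.0733 TPM), but its littoral livers were graded, at 0.0857, 0.8286, 1.19 and 7.09 TPM.

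LOC101466270 was at 334, 328, 3827 and 277 TPM in riverine, 1052, 71.8, 91.7 and 105 TPM in littoral and 20.2, 11.8, 4.54, 8.999 and 21.7 TPM in benthic livers. G09D07 was more than 10 times any other riverine liver, and G08H10 was the only littoral liver in the riverine range. LOC101473241 was at 68.0, 117, 677 and 59.9 TPM in riverine, 29.2, 14.6, 0 and 0.0686 TPM in littoral and 3.45, 9.11, 0.704, 13.4 and 6.60 TPM in benthic livers. Here too G09D07 was the highest riverine and G08H10 the highest littoral liver, and the other littoral livers were at 0, near 0 or just above the highest benthic liver. The same pair of fish was highest in its population in LOC101475730, and in no other member. The 2 exocrine pancreas genes matched (of 23), cpb1 and pla2g1b, summed to 2441 TPM in G09D07 against 194 to 625 TPM in the other riverine livers, but to 514 TPM in G08H10, the lowest littoral value, against 890 to 1964 TPM in the other littoral livers. Their part in the level of these 3 genes was not tested.

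The remaining 17 members with littoral livers between the limits or in the benthic range were LOC101474730, LOC101464984, LOC101472704, LOC101478598, LOC101479176, LOC101468730, LOC106675939, LOC112435914, LOC101472138, LOC101471677, LOC101474067, LOC101486131, LOC112431284, LOC101477659, LOC112435007 and LOC101470748, together with LOC101484698. All their littoral livers were under the lowest riverine liver. LOC101464984 was at 263, 133, 187 and 213 TPM in riverine, 8.46, 108, 76.5 and 58.1 TPM in littoral and 24.5, 17.1, 18.3, 15.5 and 29.5 TPM in benthic livers. LOC101479176 was at 104, 86.4, 119.7 and 61.5 TPM in riverine, 1.32, 45.3, 50.2 and 44.4 TPM in littoral and 4.58, 2.28, 11.9, 4.48 and 17.4 TPM in benthic livers. In both, 3 littoral livers lay between the groups and G08H10 was under every benthic liver. LOC106675939 showed another order, with littoral G08H10 at 31.5 TPM, next to the lowest riverine liver at 32.7 TPM, and the other littoral livers between 7.78 and 11.6 TPM.

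Over the 45 members, the 4 littoral fish did not lie at the same place. G08H10 was in the riverine range in 7 members, between the limits in 10 and at or under the highest benthic liver in 28. The corresponding counts were 12, 15 and 18 for G10G05, 5, 20 and 20 for G10H04, and 5, 18 and 22 for G10H05. On a scale where 0 is the benthic and 1 the riverine mean of log2(TPM + 0.1), the median position was -0.01 in G08H10, 0.37 in G10G05, 0.34 in G10H04 and 0.31 in G10H05. The fish that shared the riverine run was thus the lowest by this median and the 3 littoral fish of the benthic run were close to each other. G10G05, in the riverine range in 12 members, had the highest littoral sum of the pancreas genes (1964 TPM). It also had the highest sum of the 3 kidney genes matched of 6 (75.3 TPM, against at most 0.439 TPM in any other liver). Nearly all of that sum was slc12a1 (75.2 TPM), while slc12a3 (0.0795 TPM) and nphs1 (0.0213 TPM) were within the range of the other livers. The part of the pancreas and kidney genes in the levels of G10G05 was not tested. The median of the 4 littoral positions was under 0.5 in 32 members, under 0 in 11 and over 0.8 in 4, and its median over the members was 0.27.

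**Figure D4:**
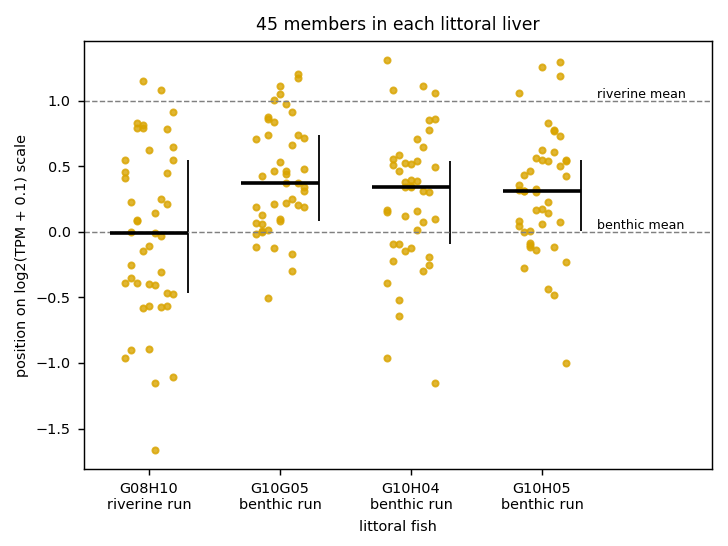
Position of each of 45 members (points) in the 4 littoral livers on a scale where 0 is the benthic mean and 1 the riverine mean of log2(TPM + 0.1), with the median as a thick line and the middle 50% of members as a thin vertical line; points are spread sideways to keep them apart. The median is -0.01 in G08H10, the littoral fish of the riverine run, and 0.31 to 0.37 in the others, and single genes reach from under the benthic to over the riverine mean in every fish.

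The low place of G08H10 was not particular to the members. It was the lowest littoral liver in 25 of 45 members (55.6%) and in 59.0% of the 21147 genes, and the highest in 17.8% and 13.2%. Likewise, G10G05 was the highest littoral liver in 35.6% of members and in 48.4% of all genes. G10H04 was so in 24.4% and 29.2%. G10H05 differed, as the highest littoral liver in 22.2% of members and in 9.28% of all genes. Ties were counted for G08H10, so its shares here and after the scaling below are upper limits. Such ties at 0 occurred in LOC112431438, LOC101473686, LOC112435913 and LOC112435947, and those among all genes were not counted. After scaling of the libraries by median ratios, G08H10 was the lowest littoral liver in 19 of the same 45 members (42.2%), against 38.7% of all genes, and was in the riverine range in 9 members, between in 10 and at or under the highest benthic liver in 26. By the same scaling G10G05 was in the riverine range in 7 members, in place of 12. The order of the highest littoral livers also changed, with G10H05 the highest in 18 members, G08H10 in 11, G10G05 in 8 and G10H04 in 8. The shares of the highest liver among all genes were not computed after scaling. Of the same 45 members, the scaling put 1 with all littoral livers in the riverine range, 26 between, 11 with both kinds and 7 with all in the benthic range. For the 18 genes with a name that met the same limits, the median position was -0.28 in G08H10, 0.27 in G10G05, 0.60 in G10H04 and 0.37 in G10H05.

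Within a single run, as read from the titles, population and run are not confounded. In the riverine run, littoral G08H10 was under the lowest riverine liver in 38 of 45 members (84.4%), whereas it was so in 28.0% of all genes. In the benthic run, the 3 littoral livers were all above the highest benthic liver in 15 of 45 members (33.3%), against 4.14% of all genes. The same 3 livers, compared across the runs, were all under the lowest riverine liver in 30 of 45 members (66.7%), against 2.41% of all genes. The first of these values rests on 1 littoral fish, and all 3 share the riverine or the benthic fish with the selection. The lowest riverine and the highest benthic liver are also the values that the selection used. The raised shares thus follow in part from the choice of members, and nothing is read from them.

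The members also varied among riverine fish. The ratio of the highest to the lowest riverine liver had a median of 2.81, and it ran from 1.19 in LOC101474067 to 402 in LOC112431438. It was under 2 in 11 members, among them LOC101478108, LOC112435011, LOC101472704, LOC101464984 and LOC101478598. It was over 10 in 9 members, LOC112431438, LOC101466270, LOC105940518, LOC101473241, LOC101484698, LOC112430460, LOC101474216, LOC112435913 and LOC112435947. LOC101474067 was at 29.7, 29.3, 24.9 and 26.1 TPM in riverine, 9.80, 3.66, 18.4 and 7.36 TPM in littoral and 2.97, 0.593, 3.88, 1.76 and 0.427 TPM in benthic livers. The highest riverine liver was G08F07 in 13 of 45 members, G09D04 in 14, G09D07 in 10 and G09D10 in 8, so that no single riverine fish led the group. Among all genes G09D04 was the highest in 48.4% and G08F07 in 13.8%.

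A total of 3 members met the limits only because 0 is not less than 2 times 0. LOC106675505, LOC112432514 and LOC101479486 were listed at 0 in at least 1 riverine liver and in every benthic liver. LOC112432514 was at 22.1, 0, 0 and 37.9 TPM and LOC101479486 at 0, 20.7, 0 and 3.74 TPM in riverine livers, and both were listed at 0 in all lake fish. These 2 genes were thus above 0 in 2 riverine livers only and LOC106675505 in 3, and the models of the 3 genes were short, at 324 bases in LOC106675505, 212 bases in LOC112432514 and 192 bases in LOC101479486.

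The 48 members comprised 63 transcripts. In 39 members (81.2%) the gene had 1 transcript, compared with 70.4% of the 2613 LOC genes with a riverine mean of at least 5 TPM, and the other 9 had 2 to 5. The models were coding in 36 members, noncoding in 11 and of both kinds in 1. A noncoding leading transcript was thus found in 22.9% of members and in 13.5% of those LOC genes, a description for which no test was made. The 11 noncoding members were LOC112435011, LOC105940518, LOC101484698, LOC101473686, LOC112430460, LOC112435914, LOC106675505, LOC112432514, LOC112435913, LOC112429943 and LOC101479486. The leading transcript had a median length of 1629 bases, from 190 bases in LOC105940518 to 4916 bases in LOC101472138, against a median of 1762 bases in those LOC genes, and it was under 500 bases in 7 members. Of the noncoding members, LOC106675505, LOC112432514 and LOC101479486 met the limits only through levels of 0. Their models are also among those under 500 bases. The shares without these genes were not computed.

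In 8 of the 9 members with several transcripts the leading transcript, the one with the highest riverine mean, met the limits on its own. The exception was LOC101470748, whose leading transcript held 78.7% of the riverine level. The selection used the sum over transcripts in the same livers, so this count largely restates it. Among the same 9 members, the transcript with the highest riverine level was also the highest in benthic livers in 5. In LOC105940518 a form of 190 bases held 60.8% of the riverine but 2.34% of the benthic level, and a form of 301 bases held 39.2% and 97.7%. The shorter form was at 115, 450.1, 41.3 and 181 TPM in riverine and 91.0, 299, 0 and 377 TPM in littoral livers, and it was listed at 0 in 4 benthic livers and was at 1.78 TPM in benthic G10E09. For this form, littoral G10H04 was thus with the benthic fish and the other 3 littoral livers were in the riverine range. In LOC112430014, with 5 transcripts, a form of 1212 bases held 61.0% of the riverine and 2.84% of the benthic level, and a form of 2079 bases held 10.02% and 97.2%. The form of 1212 bases was at 6.12, 4.75, 6.61 and 11.8 TPM in riverine livers, was listed at 0 in all littoral livers and in 4 benthic livers, and was at 0.116 TPM in benthic G10G01. In these genes the benthic and riverine livers differed in which model received the reads as well as in the sum. The turn was smaller in LOC101482452, where a form of 1267 bases held 70.7% of the riverine and 41.4% of the benthic level, and in LOC101479176, where the leading form held 53.6% and 47.7%. Such shares are assigned by the quantification among models that can overlap, and at the low benthic levels of LOC112430014, at most 1.718 TPM for the gene, they rest on little signal. Since TPM are corrected for length, the levels of models as short as 190 and 301 bases in LOC105940518 can rest on few reads. The number of these reads is unknown.

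All 48 members passed the filter of 0.1 TPM on average for the linear model, 4 of them with no signal in benthic livers. A gene was called when its adjusted p from limma was under 0.05, its log2 difference was 1.5 or more in size and 1 or more fish reached 10 TPM. With the selection contrast, riverine against benthic, 41 of 48 members (85.4%) were called higher in riverine livers, where 0.766% of all genes were. This count restates the selection, and nothing is read from it. The median log2 difference of the members was 3.61, and that of all genes was -0.62.

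Between riverine and littoral livers, 15 of 48 members (31.2%) were called higher in riverine livers, against 0.345% of all genes, with a median log2 difference of 2.54 over the members and -0.40 over all genes. They were LOC101478108, LOC106675683, LOC101477825, LOC101474730, LOC101472704, LOC101482452, LOC101484698, LOC101472138, LOC101471677, LOC101486131, LOC112432394, LOC112435913, LOC112430014, LOC112435007 and LOC101470748. For LOC101478108 the log2 difference was 2.45 ± 0.31 (standard error). Between littoral and benthic livers, 1 of 48 members (2.08%) was called higher in littoral livers, LOC101480199, against 0.0189% of all genes (4 genes), with a median log2 difference of 0.82 over the members and -0.20 over all genes. This call was lost when any 1 of 9 fish was left out (riverine G08F07, littoral G10G05, G10H04 or G10H05, or any benthic fish), and without littoral G08H10 4 members were called. No member was called lower in any of the 3 comparisons. Both comparisons share fish with the selection, so these counts are no independent support for a direction. Without riverine G08F07, G09D07 or G09D10 the count between riverine and littoral livers was 8, and without littoral G10H05 it was 9. With run as a covariate, 22 members were called between riverine and benthic livers, while the calls of all genes went from 162 higher among 619 to 301 higher among 326. Between riverine and littoral livers 18 members were then called, and the calls of all genes went from 73 higher among 161 to 319 higher among 351. Only the littoral population had fish in both runs, so the run term rests on 1 library, G08H10, against the 3 other littoral libraries. The counts with this covariate therefore do not separate run from that fish. Without riverine G09D10, 26 members were called between riverine and benthic livers. Scaling by median ratios moved the calls of all genes to 472 higher among 665 between riverine and benthic livers and to 185 among 232 between riverine and littoral livers, with no member called lower.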

How the data were processed

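After trimming, and cropping of the longer reads of the benthic run, the authors quantified transcripts with kallisto against models of the related cichlid Maylandia zebra. They deposited TPM for 51012 transcripts without scaling between libraries. Original read length and population thus cannot be told apart between riverine and benthic fish. TPM keep no read counts, so no counting interval can be given for a gene and the depth behind a value is unknown. Here TPM were summed to genes by symbol and the selection applied with pandas 2.3.3 in Python 3.11.15. Linear models with 3 populations in 1 fit used limma 3.58.1 in R 4.3.3 (moderated with a trend) on log2(TPM + 0.1), with Benjamini-Hochberg adjustment over the 21147 genes, and the procedure was tested on simulated data. Such log2 differences understate changes of low genes. Thresholds for a call followed the study's methods section, since its text and legends use others.

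The members and lists were chosen with earlier results of these data known. Values in every fish were given for the 10 members with the highest riverine mean and for the 4 highest of each littoral class (13 members), and for others chosen after their values were seen. Alternatives changed the scaling (median ratios), limits, pseudocount, filter, level of summary and fish. Marker lists were matched by symbol, which LOC genes escape. The methylation table was not used here, since its sites could not be placed in these genes, and no sequence is printed.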

Additional observations from a re-analysis of the deposited data

Results flagged for a closer look

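Among the 13 members given with the value in every fish, single livers stood apart from the rest of their population in 8 cases. In these the gap to the nearest liver, divided by the range of the population, exceeded the critical value of Dixon's test for its size. A total of 38 groups were examined, on TPM without a log scale. Chance marks about 1 in 20 groups this way only if values are normally distributed, which was not checked for these TPM. The number of cases is therefore not set against that share. The 4 cases in riverine or benthic livers concern values the selection used, in genes named mostly for a high riverine mean, and are a description only. Benthic G10E03 was high in LOC101478108 (9379.9 TPM) and in LOC106675683 (1.005 TPM). Littoral G10H04 was high in LOC112431438 (2535 TPM), where the other littoral livers were tied at 0, so that the gap was the whole range. Littoral G10G05 was high in LOC106675683 (426 TPM). Littoral G08H10, the only littoral library of the riverine run, was high in LOC101466270 (1052 TPM) and LOC101475730 (330.3 TPM). Riverine G09D07 was high in LOC101466270 (3827 TPM) and LOC101473241 (677 TPM), and in this liver the matched pancreas genes were also the highest of the riverine livers, at 2441 TPM. In littoral G08H10, however, the sum of the pancreas genes was the lowest of the littoral livers, at 514 TPM. The part of the pancreas genes in these levels was not tested.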

How the results depend on the processing

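The number of genes that met the limits, 48, was 94 after median-ratio scaling and 84 with a mean limit of 1 TPM, with all 48 retained in both, and 16 with a fold limit of 4. Leaving out 1 riverine or benthic fish gave 52 to 78, the highest without riverine G09D04. Fewer fish can only loosen the fold limit, so a rise was largely set in advance. With a mean limit of 10 TPM 41 genes met the limits and by single transcripts 58. Choices made after seeing the data gave 51 (TPM recomputed without LOC101478108, which was then added back to the count) and 45 (lowest riverine liver above 0). Over the larger set after scaling, 2 genes had all littoral livers in the riverine range, 48 lay between, 25 were mixed and 14 were in the benthic range. With a fold limit of 4 these were 11 between, 1 mixed and 1 in the benthic range. Leaving out 1 littoral fish gave 0 to 1 in the riverine range, 26 to 28 between, 7 to 12 mixed (7 without G08H10) and 7 to 10 in the benthic range (10 without G10G05). With fewer littoral fish the mixed class can only shrink and the riverine-range and benthic-range classes can only grow. Calls between littoral and benthic livers, 1 member, were 0 with a pseudocount of 1, with no filter and for transcripts, 3 with a filter at 1 TPM and after scaling, 4 with run as a covariate, and 0 to 4 with 1 fish left out, 4 without G08H10, 2 without riverine G09D07 and 0 without any of 9 other fish, riverine G08F07 among them. Calls between riverine and benthic livers, 41, fell to 22 with run as a covariate, and were 26 to 45 with 1 fish left out. Calls between riverine and littoral livers, 15, were 8 to 18 with 1 fish left out. The run covariate was set by littoral G08H10 against the other littoral fish only. Of 36 other alternatives 19 stayed within 1.5 times the main count, and of 64 leave-one-out values 43. Several of these counts could move in 1 direction only. The cause of these shifts was not tested. No paired analysis was possible because each RNA library came from a separate wild fish and the labels pair no fish across populations. The planned methylation tests and their alternatives were not run.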
